A study of Mus musculus with 24 samples.

Results

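The mitochondrially encoded genes are the transcripts made from the circular genome inside the mitochondrion itself. They were taken as every row of the count table whose Ensembl ID carries a mouse symbol beginning with mt-, which gave 37 of 55401 rows. Of these, 13 are protein genes, 2 are ribosomal RNAs (mt-Rnr1 and mt-Rnr2) and 22 are transfer RNAs. RNA was measured in the nucleus accumbens, a ventral striatal region of reward and motivation built mainly of GABAergic medium spiny neurons, in 24 mouse libraries of 4 groups with 6 libraries each.

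The SNI Mef2c group had tibial SNI (spared nerve injury, used to model lasting neuropathic pain) on the left sciatic nerve, and AAV8-hSyn-Mef2c-Egfp in the accumbens of both hemispheres. The Sham Mef2c group had the same vector and an operation that left the nerves untouched. The SNI Gfp group had the nerve injury and AAV8-hSyn-Egfp, and the Sham Gfp group had the sham operation and AAV8-hSyn-Egfp. Every group therefore carried an AAV8 vector and Egfp, and no library came from tissue without a virus. The hSyn promoter drives expression in neurons, while the punches, taken from both sides, hold all cell types of the tissue. The mice were C57BL/6J or DBA/2J, 8 to 9 weeks old, and which library came from which strain, sex or number of mice was not stated in the labels. P-values therefore measure the spread between these libraries, part of which may be technical.

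Mitochondrial DNA encodes core subunits of the respiratory chain and of ATP synthase, and the rRNAs and tRNAs that translate them inside the organelle. Both of its strands are transcribed as long precursors by the nuclear encoded RNA polymerase POLRMT with TFAM and TFB2M, and the tRNAs between the other genes mark the places where the precursors are cut. Most of the mature mRNAs get short poly(A) tails, and their levels depend on transcription, processing and decay together. Neurons spend much of their ATP on ion gradients and synaptic signalling, so these transcripts are abundant in brain tissue. MEF2C, the protein the vector carried, is an activity-dependent transcription factor of the nucleus.

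Neighbouring members overlap, and 1 stretch of the genome has a nearly identical copy in the nucleus, so a few sequences are shown before the values. They are the sense sequences of GENCODE M21 on GRCm38. In mt-Atp8, which encodes a small ATP synthase subunit, the 43 bases at the 3′ end (capitals) are also the start of mt-Atp6. In mt-Nd4l, a complex I subunit, the 7 last bases (capitals) are also the start of mt-Nd4. A read over such bases cannot be told apart between the members. The starts of mt-Nd3 and of Gm28438, its nuclear copy, are given over 43 bases with the base that differs in capitals.
mt-Atp8: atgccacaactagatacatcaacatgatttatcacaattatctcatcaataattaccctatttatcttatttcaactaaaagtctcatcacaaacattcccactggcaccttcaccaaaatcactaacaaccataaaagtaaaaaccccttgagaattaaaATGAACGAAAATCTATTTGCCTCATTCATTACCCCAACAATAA
mt-Nd4l: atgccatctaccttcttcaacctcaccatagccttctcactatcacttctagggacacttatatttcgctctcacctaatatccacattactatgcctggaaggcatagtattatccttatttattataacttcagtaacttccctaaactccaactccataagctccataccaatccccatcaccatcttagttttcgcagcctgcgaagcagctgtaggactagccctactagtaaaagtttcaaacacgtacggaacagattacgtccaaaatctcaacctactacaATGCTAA
mt-Nd3 stretch: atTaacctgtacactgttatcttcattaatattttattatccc
Gm28438 stretch: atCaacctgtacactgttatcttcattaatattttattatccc

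Between mt-Nd3 and Gm28438, 345 bases were compared and 1 differed, T3C, counted from 1 at the first base of mt-Nd3. Gm28438 is 1 of 7 annotated pseudogenes on chromosome 1 that lie side by side on the minus strand (chr1:24611535-24616197) and hold a copy of mitochondrial sequence. They match the 3′ part of mt-Co1 (Gm29216), mt-Co2 (Gm28661), mt-Atp6 (Gm10925), mt-Co3 (Gm28437), mt-Nd3, mt-Nd4l (Gm10222) and the 5′ part of mt-Nd4 (Gm28439). Over 4140 aligned bases they held 2 mismatches to the mitochondrial transcripts. The matching stretch of the mitochondrial genome runs over 4653 bases (chrM:6390-11042). mt-Atp8 and the tRNA genes mt-Ts1, mt-Td, mt-Tk, mt-Tg and mt-Tr lie within it between matched rows, where the nuclear sequence was not compared. Further annotated nuclear rows match members less closely. On chromosome 2, Gm13340 matches all of mt-Co1 at 97.6% identity, Gm13341 all of mt-Co2 at 95.9% and Gm13339 the 3′ part of mt-Nd2 at 96.7%, with 14094, 2366 and 1158 counts over all libraries. On chromosome 13, Gm4076 matches part of mt-Nd5 at 95.2% (1571 counts). On chromosome 4, Gm11407, Gm11408 and Gm11410 match mt-Nd5 in part, mt-Nd6 and mt-Cytb at 92.3 to 93.6%, with 411 to 547 counts each. For mt-Atp8 the longest match is Gm28925, at 81.4% identity and with 0 counts, and the protein-coding gene Cep295 holds matches of 59 to 62 bases to mt-Tl1, mt-Ta and mt-Ty. In what follows, inside and outside refer to the stretch with the nearly identical copy on chromosome 1. How reads that match both places were counted is not given in the sources used here.

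Per length of gene, the protein genes inside the copied stretch stood far below the other protein genes. Levels between genes are given in FPKM, which the deposited table derives from the counts, the library total and the gene's length. The 5 protein genes wholly outside the stretch had mean levels between 1229 and 2363 FPKM over the 24 libraries. The 6 protein genes wholly inside it had mean levels between 16.4 and 82.9 FPKM. The lowest gene outside therefore stood 14.8-fold above the highest gene inside. In the plot of levels along the genome the drop begins after mt-Co1 and ends at mt-Nd4, the 2 genes that reach into the stretch.

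The order of the levels was nearly the same in every library. mt-Nd1, a membrane subunit of complex I, had the highest mean at 2363 ± 216 FPKM (SD, n = 24). mt-Cytb, the cytochrome b of complex III, followed at 2334 ± 177 FPKM and was below mt-Nd1 in 17 of 24 libraries, so this pair did not separate. mt-Co1, the catalytic subunit of complex IV, averaged 2232 ± 171 FPKM and mt-Nd2 1855 ± 168 FPKM, and each stood above the next gene in 24 of 24 libraries. The complex I genes mt-Nd6 at 1232 ± 120 FPKM and mt-Nd5 at 1229 ± 94.0 FPKM changed places, with mt-Nd6 higher in 13 of 24 libraries. These neighbours overlap by 14 bases on opposite strands, and since strand was not used in counting, reads from the end of one cannot be told apart from reads of the other. mt-Nd4 averaged 1057 ± 93.1 FPKM.

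Both rRNAs lay below these genes, mt-Rnr2 (16S) at 915 ± 65.6 FPKM and mt-Rnr1 (12S) at 904 ± 74.3 FPKM, with mt-Rnr2 higher in 16 of 24 libraries. The libraries were made with a kit for mRNA, so the rRNA rows do not give the amount of rRNA in the tissue. Below them came the members of the copied stretch, in the order mt-Co2 (82.9 ± 10.1 FPKM), mt-Atp6 (61.0 ± 8.34), mt-Atp8 (55.7 ± 8.35), mt-Co3 (48.6 ± 5.98), mt-Nd4l (29.5 ± 3.20) and mt-Nd3 (16.4 ± 2.44; SD, n = 24). mt-Co2 and mt-Co3 encode complex IV subunits, and mt-Atp6 and mt-Atp8 the mitochondrial subunits of ATP synthase. Each of these stood above the next in 24 of 24 libraries.

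The copies on chromosome 1 carried 107217 counts in all over the 24 libraries. Gm28438 held 18072 counts, more than the 4336 of mt-Nd3 from which it differs at 1 base. For the other wholly copied genes the mitochondrial row held more: 43016 counts for mt-Co2 against 11494 for Gm28661, 31525 for mt-Atp6 against 24563 for Gm10925, 28875 for mt-Co3 against 16596 for Gm28437, and 6640 for mt-Nd4l against 4132 for Gm10222. mt-Co1 and mt-Nd4, which keep a part outside the stretch, held 2613388 and 1104433 counts. All counts of mt-Nd4 divided by the 502 bases it has outside the stretch come to 2200 counts per base, and those of mt-Co1 over its 1062 such bases to 2461, against 1791 for mt-Nd1 and 1770 for mt-Cytb. The 6 wholly copied protein genes made up 0.934% of the 13167776 mitochondrial counts. The 5 genes outside the stretch made up 56.1%, mt-Co1 and mt-Nd4 28.2%, the rRNAs 13.3% and the tRNAs 1.46%.

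Among the 22 tRNA genes, the 4 with most counts were mt-Te for glutamate (42187 counts), mt-Tl1 for leucine (31154), mt-Tp for proline (25573) and mt-Tm for methionine (18961). They are shown with mt-Tk for lysine, inside the copied stretch, which had the fewest.
mt-Te: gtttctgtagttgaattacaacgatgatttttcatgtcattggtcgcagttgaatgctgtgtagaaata
mt-Tl1: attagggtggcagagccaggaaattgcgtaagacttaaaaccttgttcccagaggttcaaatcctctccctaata
mt-Tp: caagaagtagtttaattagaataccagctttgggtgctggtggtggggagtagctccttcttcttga
mt-Tm: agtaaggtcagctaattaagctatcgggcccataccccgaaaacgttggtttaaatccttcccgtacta
mt-Tk: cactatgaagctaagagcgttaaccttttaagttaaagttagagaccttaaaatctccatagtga

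mt-Te (chrM:14071-14139, minus strand) ends on that strand at the base before mt-Nd6. mt-Tl1 (chrM:2676-2750) fills the gap between mt-Rnr2 and mt-Nd1, and mt-Tm (chrM:3845-3913) ends at the base before mt-Nd2. mt-Tp lies on the minus strand at chrM:15356-15422, next to mt-Tt. A read reaching over such a border, or a precursor not yet cut there, counts towards the tRNA row as well, so these counts are not the amount of mature tRNA. The 17 tRNA genes outside the copied stretch had mean levels between 26.4 and 807 FPKM. Of the 5 inside, mt-Ts1, whose end overlaps mt-Co1 by 3 bases, had 122 FPKM, and the other 4 had 1.80 to 5.68 FPKM. mt-Tk, mt-Tr and mt-Tg, with 89, 157 and 178 counts over all libraries, did not pass the filter on low counts, which left 34 members for testing.

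The mitochondrial share of a library is the sum over the 37 rows as a percentage of all its counts. It averaged 1.86% ± 0.112 in SNI Mef2c libraries, 1.76% ± 0.0347 in Sham Mef2c libraries, 1.71% ± 0.0915 in SNI Gfp libraries and 1.62% ± 0.161 in Sham Gfp libraries (SD, n = 6 each). The lowest, median and highest shares were 1.75, 1.82 and 2.01% in SNI Mef2c libraries, 1.73, 1.75 and 1.81% in Sham Mef2c libraries, 1.59, 1.76 and 1.79% in SNI Gfp libraries and 1.37, 1.67 and 1.81% in Sham Gfp libraries. All 4 ranges overlapped, and the share is given as a description without a test. Libraries held between 25477019 and 36570108 counts, so the Wilson 95% interval of a share was at most 0.0108 percentage points wide. It covers counting error only, and the spread between libraries was larger. In bulk tissue, fewer cells of a type and less RNA per cell cannot be told apart.

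**Figure D1:**
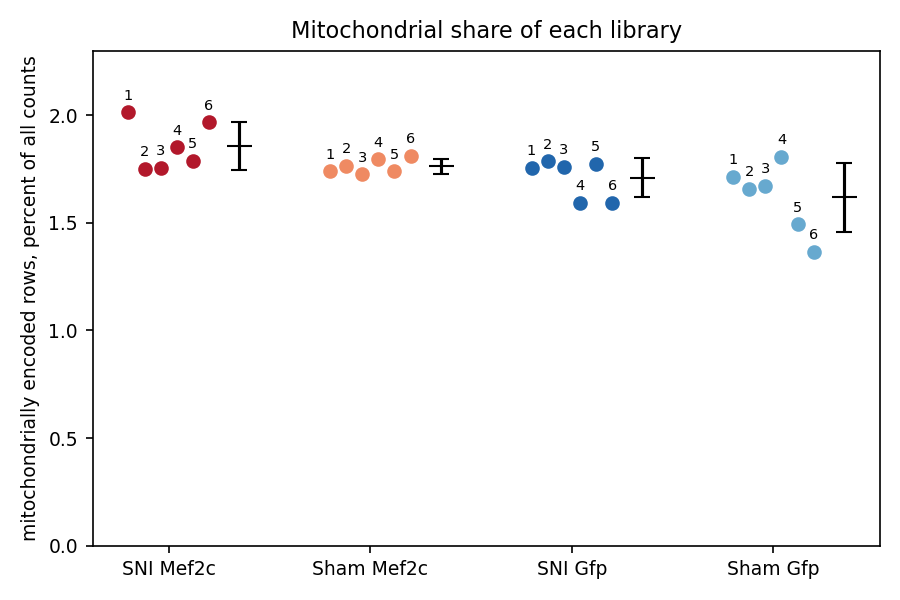
Mitochondrially encoded rows as a percentage of all counts in each of the 24 libraries, with the replicate number above each point and the mean ± SD beside each group of 6. Sham Gfp libraries 5 and 6 are lowest at 1.49 and 1.37%, and all 4 groups overlap.

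Sham Gfp libraries 5 and 6 stood apart, with shares of 1.49 and 1.37% beside 1.66 to 1.81% in the other libraries of their group. The mean share of Sham Mef2c libraries was 0.145 percentage points above that of Sham Gfp libraries, and without these 2 libraries the difference was 0.0501 points. SNI Gfp libraries lay 0.0923 points above Sham Gfp libraries, against -0.0022 points without them. Libraries 5 and 6 had the lowest shares of their group, so leaving them out shrinks both differences by construction. SNI Mef2c libraries lay 0.145 points above SNI Gfp libraries and 0.0922 points above Sham Mef2c libraries, comparisons that do not hold the 2 libraries. The difference from Sham Mef2c was 0.0604 points without SNI Mef2c library 1. Sham Gfp library 6 alone weighed most, and without it the 2 differences from Sham Gfp libraries were 0.0939 points for Sham Mef2c and 0.0417 points for SNI Gfp. Among the nuclear subunit lists, libraries 5 and 6 were the lowest of the 24 libraries in complex II, complex III and ATP synthase. In complex I and complex IV library 6 was lowest (5.69 and 6.29 log2 CPM), while library 5 (5.72 and 6.37) was among the 3 lowest.

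The rRNAs' mean part of the mitochondrial counts was lower in both injured groups, within overlapping ranges. It was 12.6% ± 0.560 in SNI Mef2c and 13.5% ± 0.663 in Sham Mef2c libraries, and 13.2% ± 0.492 in SNI Gfp and 14.0% ± 0.897 in Sham Gfp libraries (SD, n = 6 each). The ranges ran from 12.0 to 13.7% against 12.8 to 14.2% with the Mef2c vector and from 12.6 to 13.8% against 12.9 to 15.5% with the Gfp vector. No test was made of this part.

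Levels of single genes across libraries are given as CPM, a count scaled to a fixed library total with TMM factors, and changes as log2 fold changes with their standard error (SE). They were tested with edgeR's quasi-likelihood test over 23738 genes, and a gene was called at an adjusted p (Benjamini-Hochberg) under 0.05. The vector's gene was read first. Mef2c had 474, 550 and 831 CPM (lowest, median and highest) in SNI Mef2c libraries, 123, 229 and 469 CPM in Sham Mef2c libraries, 133, 152 and 221 CPM in SNI Gfp libraries and 139, 168 and 212 CPM in Sham Gfp libraries. It was above every Gfp library in all SNI Mef2c libraries, while Sham Mef2c and Sham Gfp libraries overlapped. Its log2 fold change was 1.86 (SE 0.26, edgeR adjusted p = 0.00627) between SNI Mef2c and SNI Gfp libraries, and 0.52 (SE 0.25, adjusted p = 0.229) between Sham Mef2c and Sham Gfp libraries. Without Sham Mef2c libraries 2 and 5 the second was 0.85 (edgeR adjusted p = 0.0141), and without SNI Gfp libraries 3 and 4 the first missed the threshold (adjusted p = 0.0829). Sham Mef2c libraries 2 and 5 pulled their group's Mef2c level down. Leaving them out therefore raises this change by construction and adds no support for it.

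Between Sham Mef2c and Sham Gfp libraries, which ask what the Mef2c vector did in mice without nerve injury, 5 of 34 mitochondrially encoded genes passed the test and all were higher in Sham Mef2c. They were mt-Atp8, mt-Atp6, mt-Co2, mt-Co3 and mt-Nd4l, and every one lies inside the copied stretch. Of all genes tested in this comparison, 9.42% were called, 1.49% as higher and 7.93% as lower, against 14.7% of the members as higher. Members share reads and precursors, so they are not independent of each other. The called genes included both mitochondrial subunits of ATP synthase, 2 of 3 of complex IV and 1 of 7 of complex I.

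mt-Atp8 had 11.3, 11.9 and 13.1 CPM (lowest, median and highest) in Sham Mef2c libraries, against 6.82, 9.78 and 11.5 CPM in Sham Gfp libraries. In 5 of 6 Sham Mef2c libraries it was above the highest Sham Gfp library. Its log2 fold change was 0.39 (SE 0.09, edgeR adjusted p = 0.00656), the highest among the members. mt-Atp6, the membrane subunit of the proton channel, had 38.0, 43.2 and 45.8 CPM in Sham Mef2c libraries, against 25.2, 36.4 and 42.9 CPM in Sham Gfp libraries. It changed by 0.30 (SE 0.09, edgeR adjusted p = 0.042), with 4 of 6 Sham Mef2c libraries above the highest Sham Gfp library.

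mt-Co3 had 35.7, 38.9 and 41.7 CPM in Sham Mef2c libraries, against 24.7, 33.4 and 37.4 CPM in Sham Gfp libraries, and 5 of 6 Sham Mef2c libraries were above the highest Sham Gfp library. The log2 fold change was 0.29 (SE 0.08, edgeR adjusted p = 0.0222). mt-Co2 had 53.7, 58.7 and 61.8 CPM in Sham Mef2c libraries, against 37.03, 50.8 and 57.7 CPM in Sham Gfp libraries, a log2 fold change of 0.28 (SE 0.08, edgeR adjusted p = 0.0295). mt-Nd4l had 8.28, 8.98 and 9.76 CPM in Sham Mef2c libraries, against 5.89, 7.59 and 8.89 CPM in Sham Gfp libraries, a log2 fold change of 0.26 (SE 0.08, edgeR adjusted p = 0.0417). For both genes 3 of 6 Sham Mef2c libraries exceeded every Sham Gfp library. In all 5 called genes the lowest Sham Gfp values came from libraries 5 and 6. The groups overlapped in all 34 members, so 0 were without overlap, beside 5.97% of all genes tested.

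**Figure D2:**
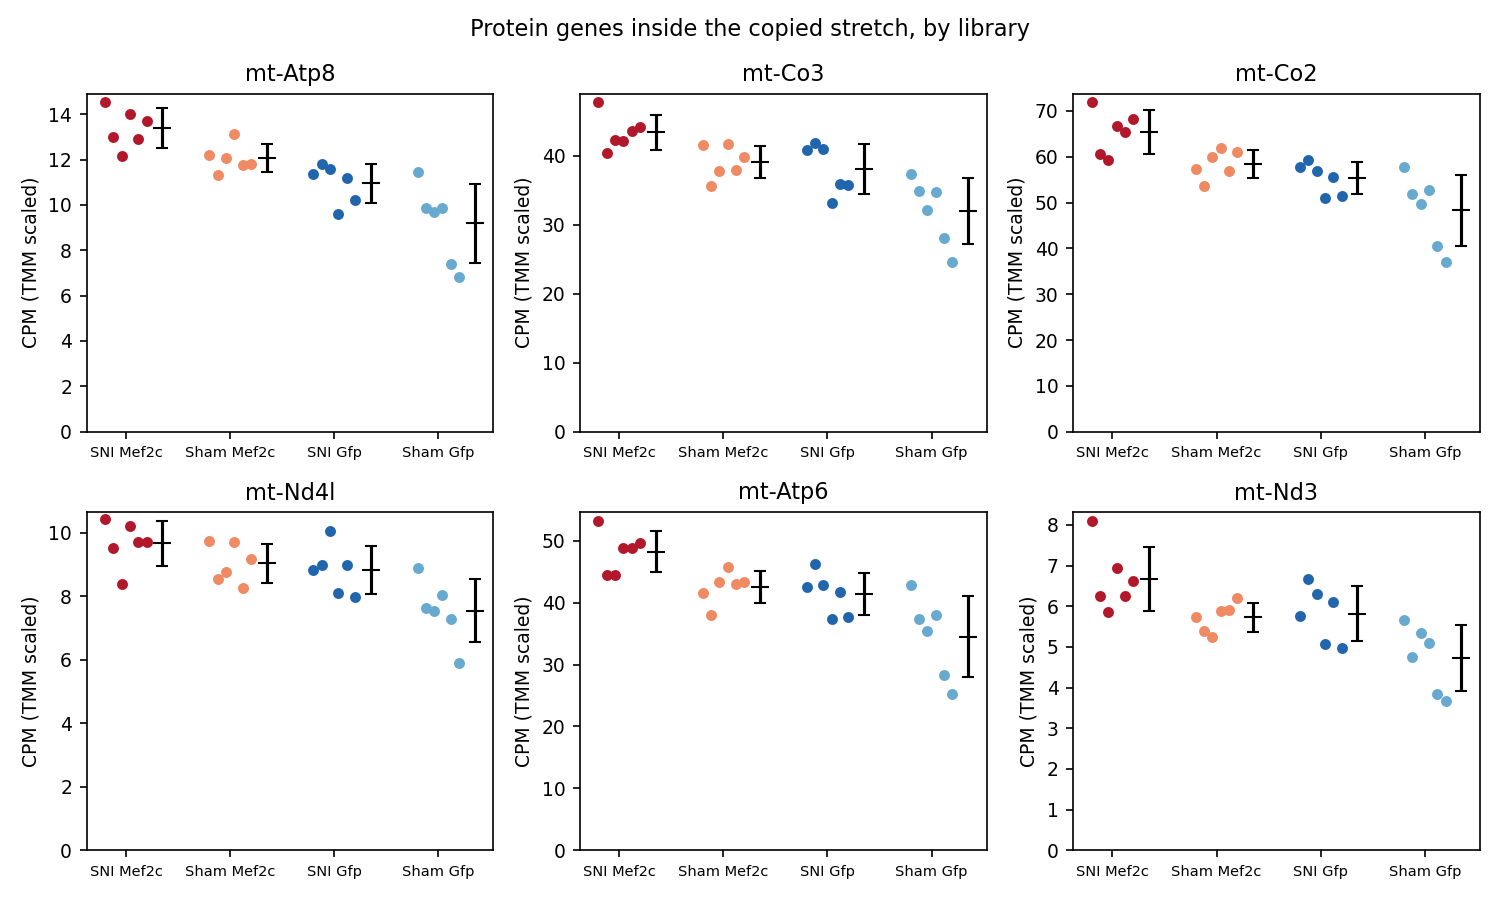
TMM-scaled CPM of the 6 protein genes inside the copied stretch in each of the 24 libraries, with the mean ± SD beside each group of 6. In all 6 genes Sham Gfp libraries 5 and 6 are the lowest of the 24, and Sham Mef2c and Sham Gfp libraries overlap.

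The remaining protein genes were also above 0 in this comparison, and none of them passed. mt-Nd3, a complex I subunit inside the stretch, had 5.25, 5.81 and 6.19 CPM in Sham Mef2c libraries, against 3.66, 4.93 and 5.67 CPM in Sham Gfp libraries, with a log2 fold change of 0.28 (SE 0.10, edgeR adjusted p = 0.113). mt-Nd4, partly inside, gave 0.20 (SE 0.07, edgeR adjusted p = 0.0804) and mt-Co1, partly inside, 0.13 (SE 0.07, adjusted p = 0.287). Of the 5 outside, mt-Nd6 gave 0.21 (SE 0.08, edgeR adjusted p = 0.0903) and mt-Cytb 0.17 (SE 0.06, adjusted p = 0.0947), and mt-Nd2, mt-Nd1 and mt-Nd5 lay between 0.13 and 0.16 with adjusted p between 0.208 and 0.249. The median log2 fold change was 0.28 over the 6 genes inside the stretch and 0.16 over the 5 outside, beside 0.02 over all genes tested. Over all 34 members tested it was 0.16, and 14 had an unadjusted p under 0.05, beside 21.2% of all genes.

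The rRNA genes gave 0.11 (mt-Rnr2; SE 0.07, edgeR adjusted p = 0.392) and 0.10 (mt-Rnr1; SE 0.08, adjusted p = 0.503). mt-Rnr2 had 1400, 1491 and 1628 CPM in Sham Mef2c libraries, against 1175, 1409 and 1578 CPM in Sham Gfp libraries. Of the 19 tRNA genes tested none passed, and their log2 fold changes ran from -0.06 to 0.26 with a median of 0.07. The 4 tRNA genes with most counts gave 0.15 (mt-Te), 0.04 (mt-Tl1), 0.17 (mt-Tp) and 0.11 (mt-Tm), with edgeR adjusted p between 0.293 and 0.854.

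The rows of the nuclear copies were then set beside the members. Between Sham Mef2c and Sham Gfp libraries their log2 fold changes lay between 0.06 (Gm28437; SE 0.11, edgeR adjusted p = 0.831) and 0.18 (Gm28438; SE 0.08, adjusted p = 0.213), and none of the 7 passed. Of the less similar copies, Gm13341, which matches mt-Co2, was called higher in Sham Mef2c by 0.44 (SE 0.12, edgeR adjusted p = 0.0185). It lost the call without Sham Gfp libraries 5 and 6 (0.28, adjusted p = 0.143), without Sham Gfp library 5 alone (adjusted p = 0.0525), with the compared groups alone (adjusted p = 0.0754) and with the interferon covariate (0.22, adjusted p = 1). Gm13339, Gm13340 and Gm4076 gave 0.27, 0.13 and 0.02 and Cep295 0.04, and none of them passed (edgeR adjusted p between 0.232 and 0.956). When each member was summed with its copy, an alternative chosen after seeing the data, mt-Co2 gave 0.24 (edgeR adjusted p = 0.0504), mt-Atp6 0.24 (adjusted p = 0.115), mt-Co3 0.20 (adjusted p = 0.175) and mt-Nd4l 0.19 (adjusted p = 0.126). The count of called members was then 1, mt-Atp8. It has no nearly identical annotated copy beyond the bases it shares with mt-Atp6, so no copy was added to its row. In the plot of members and copies the sum lies between the member and its copy for each of the 7, as it must by arithmetic. In the comparison of SNI Mef2c with SNI Gfp libraries the copies lay between 0.12 (Gm10925) and 0.42 (Gm28437; SE 0.11, edgeR adjusted p = 0.128), and none passed.

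**Figure D3:**
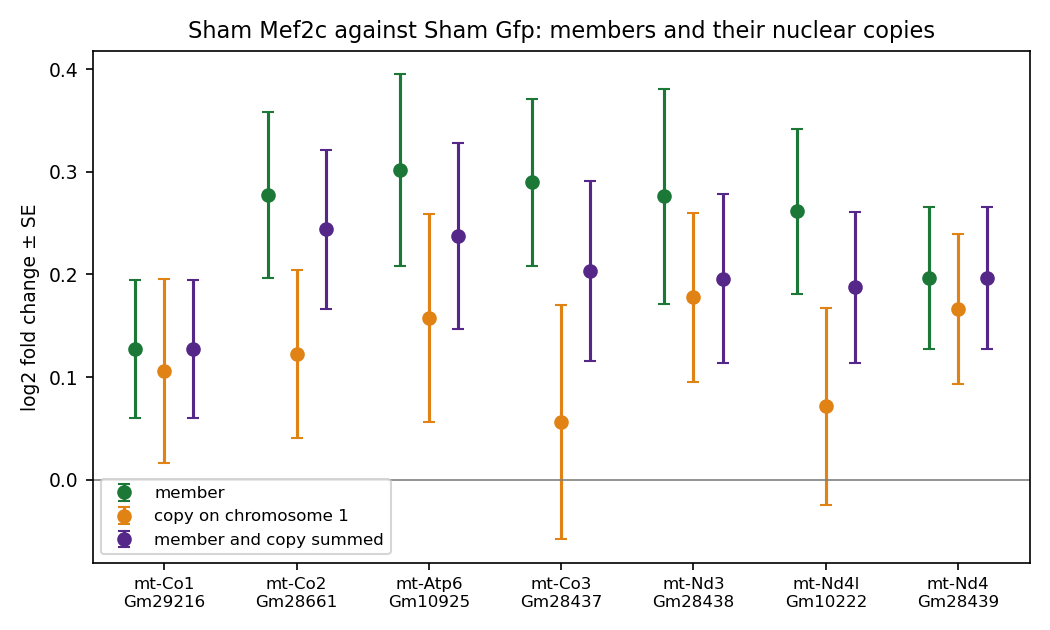
Log2 fold change ± SE, Sham Mef2c over Sham Gfp libraries, of the 7 members with an annotated copy on chromosome 1, of the copy's own row (named under the member), and of both summed. The copies lie between 0.06 and 0.18, and the members wholly inside the stretch lie above their copies.

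The number of calls depended on which libraries were kept. Without Sham Gfp libraries 5 and 6, chosen after seeing the data, 0 of 35 members tested passed in edgeR. mt-Atp8 then gave 0.23 (SE 0.07, edgeR adjusted p = 0.0525). These libraries held the lowest Sham Gfp values of the called genes, so leaving them out lowers the changes by construction. Without Sham Gfp library 5, Sham Gfp library 6 or Sham Mef2c library 4 alone, 1 member passed, mt-Atp8. Without Sham Mef2c library 3 or 6, 2 passed, and without Sham Mef2c library 1 or SNI Mef2c library 4 or 5, 3 passed. mt-Atp8 passed in all 24 fits that left out 1 library each, mt-Co3 in 21, mt-Co2 in 19, mt-Atp6 in 15 and mt-Nd4l in 13. The share of all genes called in the fits of this paragraph is not given. A loss of calls particular to the members and one over all genes therefore cannot be told apart here.

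Markers of immune activation moved with the same groups. All 15 genes of an interferon response list were called lower in Sham Mef2c than in Sham Gfp libraries, and their mean level was 1.36 ± 0.251 log2 CPM in SNI Mef2c, 1.34 ± 0.165 in Sham Mef2c, 2.71 ± 1.48 in SNI Gfp and 5.02 ± 0.737 in Sham Gfp libraries (SD, n = 6 each). Their summed level ranged from 47.8 to 66.2 CPM in Sham Mef2c libraries, against 313 to 1230 CPM in Sham Gfp libraries, and no marker of this list or of the microglia list was at 0. Of 12 microglia markers 9 were called lower and 1 higher in Sham Mef2c, with summed levels of 505 to 1060 CPM, against 1011 to 1789 CPM in Sham Gfp libraries. Within the SNI Gfp group, libraries 4 and 6 had the lowest mitochondrial shares, 1.59% each, and the highest interferon levels, 4.04 and 4.93 log2 CPM beside 1.27 to 2.71 in the other 4. Within the Sham Gfp group, libraries 5 and 6, with the lowest shares, had interferon levels of 5.41 and 5.49, and libraries 4 and 1, with the highest shares, had 4.97 and 4.75. Library 2 had the highest interferon level, 5.77, with a share of 1.66%, and library 3 the lowest, 3.71, with a share of 1.67%. With the mean interferon level as a covariate, 0 of the 34 members and 0 of the 23738 genes were called. No Sham Mef2c library reached the interferon level of any Sham Gfp library, so in the sham groups the vector and this level cannot be told apart. Some markers of other kinds were also called lower in Sham Mef2c, beside 7.93% of all genes tested. For astrocytes they were 3 of 9, with log2 fold changes of -1.87 for Gfap, -0.64 for Aqp4 and -0.43 for Aldh1l1. The others were 1 of 7 of endothelium (Ly6c1, -0.38) and 1 of 8 nuclear-retained RNAs (Neat1, -0.86), each near that background. These kinds did not move as a whole. Medians were -0.0032 for astrocytes (highest 0.50), -0.14 for endothelium (highest 0.02) and 0.06 for nuclear-retained RNAs (highest 0.12). Summed astrocyte markers ranged from 3302 to 3920 CPM in Sham Mef2c libraries, against 3367 to 4221 CPM in Sham Gfp libraries. The endothelial sum ranged from 207 to 246 CPM against 225 to 296 CPM, and that of the nuclear-retained RNAs from 9597 to 11646 CPM against 9362 to 10713 CPM, with no marker of these lists at 0. The part of these markers in the mitochondrial result was not tested otherwise.

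Markers of medium spiny neurons, the main neurons of the region, were well above those of cortical neurons, with group means of 7.79 to 8.15 and 2.73 to 3.87 log2 CPM. None of the 12 and none of the 11 were called between Sham Mef2c and Sham Gfp libraries. The median log2 fold change there was -0.05 for medium spiny neurons and -1.07 for cortical neurons (range -2.43 to 0.28). With the cortical level as a covariate, edgeR called 5 members, with adjusted p from 0.0129 (mt-Atp8) to 0.0497 (mt-Atp6). The share of all genes called in that fit is not given. The part of the punches' cell content in the mitochondrial result was not tested otherwise.

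Between SNI Mef2c and SNI Gfp libraries, which ask about the vector after nerve injury, 0 of 34 members passed in edgeR, and 0.00421% of all genes were called, a single gene, Mef2c itself. At an unadjusted p under 0.05 there were 17 of 34 members, beside 14.3% of all genes, and DESeq2 called 1 member and 1.88% of all genes, while limma-voom and limma-trend called 0 members. All 34 log2 fold changes were above 0, between 0.08 and 0.32 with a median of 0.17, beside a median of -4e-04 over all genes. mt-Atp8 had 12.1, 13.4 and 14.5 CPM in SNI Mef2c libraries, against 9.60, 11.3 and 11.8 CPM in SNI Gfp libraries. These groups did not overlap, yet the log2 fold change of 0.29 (SE 0.09, edgeR adjusted p = 0.179) did not pass. The same held for mt-Tp, at 34.9, 38.9 and 46.7 CPM in SNI Mef2c libraries against 30.4, 32.5 and 34.6 CPM in SNI Gfp libraries (log2 fold change 0.28, SE 0.13, edgeR adjusted p = 0.32). These were the only 2 of 34 members whose groups did not overlap, beside 0.56% of all genes. All 12 medium spiny neuron markers also had log2 fold changes above 0 here (0.11 to 0.42, median 0.28). All 9 oligodendrocyte markers were below 0 (-0.39 to -0.16, median -0.25). None of these markers was called, and their part in the mitochondrial values was not tested.

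The other protein genes lay between 0.13 (mt-Nd4l) and 0.24 (mt-Co2), with edgeR adjusted p between 0.197 and 0.458. mt-Co2 had 59.3, 66.0 and 72.04 CPM in SNI Mef2c libraries, against 51.0, 56.2 and 59.4 CPM in SNI Gfp libraries, and 5 of 6 SNI Mef2c libraries were above the highest SNI Gfp library. The genes outside the stretch, led by mt-Nd6 at 0.19 (SE 0.08, edgeR adjusted p = 0.281), had a median of 0.18, close to the 0.21 of the genes inside. mt-Rnr1 and mt-Rnr2 gave 0.08 and 0.09 (adjusted p = 0.65 and 0.532). Of the tRNA genes, mt-Ts1 for serine, inside the stretch, had the smallest adjusted p of all members, 0.134, with a log2 fold change of 0.27 (SE 0.08). It is named because DESeq2 called it (adjusted p = 0.0455), as did edgeR without SNI Gfp library 2 (adjusted p = 0.0462), a choice made after its values were seen. Those fits called 1.88% and 1.58% of all genes, so 1 of 34 members is near their background.

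**Figure D4:**
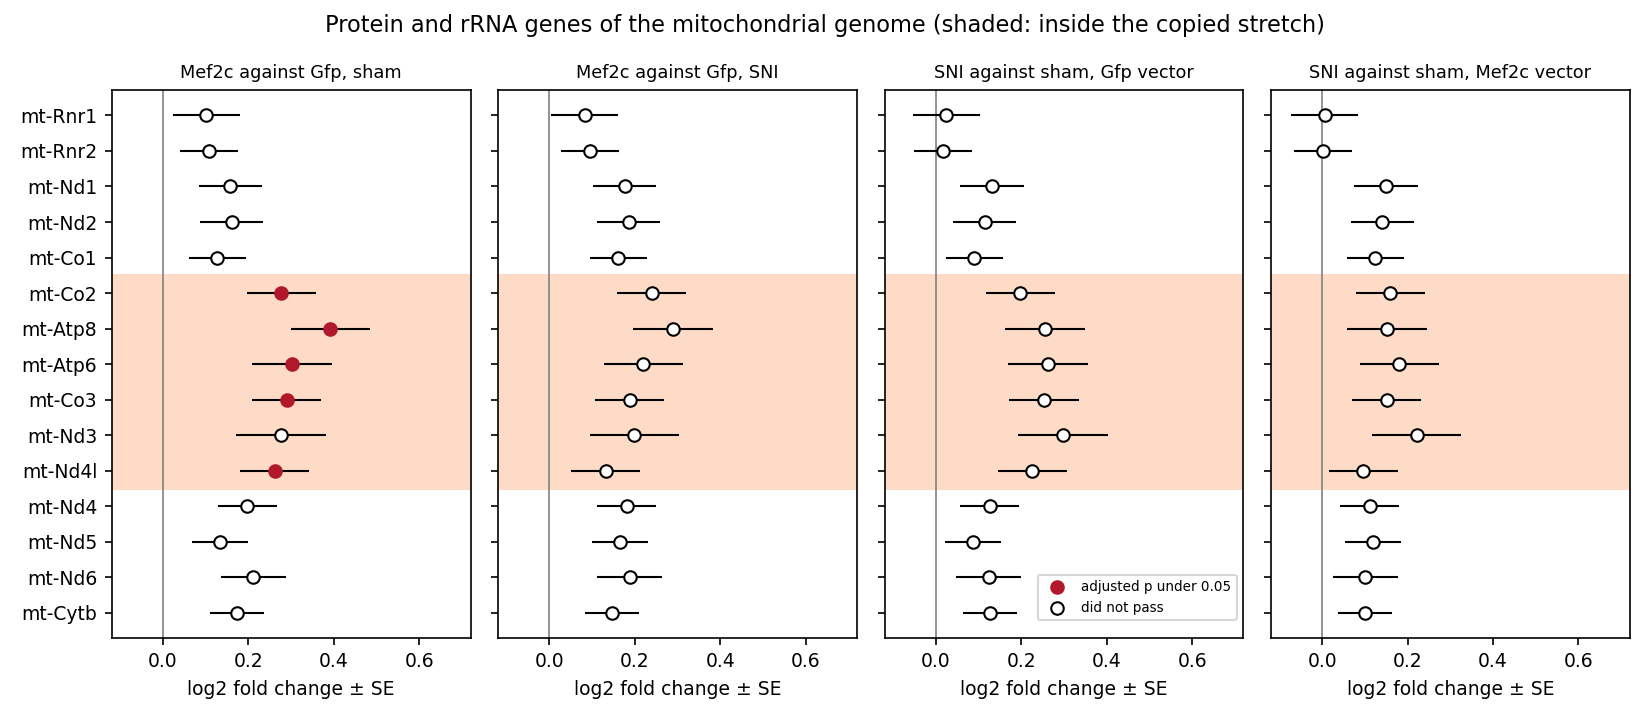
Log2 fold change ± SE of the 13 protein genes and 2 rRNA genes in 4 comparisons, in genome order from the top, with genes inside the copied stretch shaded and called genes filled. All points lie above 0, and the 5 filled ones appear in the comparison of Sham Mef2c with Sham Gfp libraries alone.

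Nerve injury with the Gfp vector, the effect of SNI in mice with the control virus, gave no called member. Between SNI Gfp and Sham Gfp libraries, 0 of 34 passed in edgeR, with 0% of all genes called, and 6 members had an unadjusted p under 0.05 beside 12.3% of all genes. DESeq2 and limma-trend also called 0 members. Those 6 were the 6 protein genes of the copied stretch. mt-Co3 had 33.2, 38.4 and 41.9 CPM in SNI Gfp libraries, against 24.7, 33.4 and 37.4 CPM in Sham Gfp libraries (log2 fold change 0.25, SE 0.08, edgeR adjusted p = 0.139). mt-Nd3 had 4.98, 5.94 and 6.66 CPM in SNI Gfp libraries, against 3.66, 4.93 and 5.67 CPM in Sham Gfp libraries (0.30, SE 0.10, edgeR adjusted p = 0.187). mt-Atp6, mt-Atp8, mt-Nd4l and mt-Co2 lay between 0.20 and 0.26 with adjusted p between 0.191 and 0.276. Groups overlapped in all 34 members, beside 0.303% of all genes without overlap, and in each of the 6 genes the Sham Gfp libraries 5 and 6 were lowest.

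The genes outside the stretch lay between 0.09 (mt-Nd5) and 0.13 (mt-Nd1), with edgeR adjusted p of 0.42 or more, and the rRNAs at 0.02 each (adjusted p = 0.949 and 0.966). limma-voom with quality weights called 5 members in this comparison, mt-Nd3 (0.38, adjusted p = 0.0148), mt-Co3, mt-Atp8, mt-Atp6 and mt-Nd4l, all higher in SNI Gfp. The same fit called 11.7% of all genes, 2777 in number with 952 of them higher. This comparison shares its Sham Gfp libraries with that of Sham Mef2c and Sham Gfp, so like directions in both are not independent.

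Nerve injury with the Mef2c vector likewise gave no called member. Between SNI Mef2c and Sham Mef2c libraries, 0 of 34 passed in edgeR, with 0% of all genes called, and 7 members had an unadjusted p under 0.05 beside 16.1% of all genes. DESeq2, limma-voom and limma-trend called 0 members too. All 34 log2 fold changes were above 0, from 0.0026 (mt-Rnr2) to 0.24 (mt-Tl1), with a median of 0.14, beside -0.0019 over all genes. mt-Tl1 had 39.9, 44.9 and 55.4 CPM in SNI Mef2c libraries, against 35.1, 39.4 and 45.3 CPM in Sham Mef2c libraries (edgeR adjusted p = 0.229). mt-Tp was the 1 member of 34 without overlap, beside 1.1% of all genes, with 34.9, 38.9 and 46.7 CPM in SNI Mef2c libraries against 31.7, 33.5 and 34.9 CPM in Sham Mef2c libraries (log2 fold change 0.24, SE 0.13, edgeR adjusted p = 0.345). The protein genes lay between 0.10 (mt-Nd4l) and 0.22 (mt-Nd3), and the medians inside and outside the stretch were 0.16 and 0.12. mt-Rnr1 and mt-Rnr2 had nearly the same levels in both groups, 894 ± 90.9 and 1501 ± 109 CPM in SNI Mef2c libraries against 890 ± 67.2 and 1498 ± 91.1 CPM in Sham Mef2c libraries (SD, n = 6 each). Cortical neuron markers averaged 3.87 ± 1.41 log2 CPM in SNI Mef2c and 2.73 ± 0.794 in Sham Mef2c libraries. Their summed levels were 216 to 1971 CPM against 211 to 387 CPM, with none of the 11 at 0. All 12 medium spiny neuron markers had log2 fold changes above 0 (0.26 to 0.62, median 0.40). All 9 oligodendrocyte markers were below 0 (-0.21 to -0.02, median -0.12). No marker of these 3 kinds was called, and their part in the mitochondrial values was not tested.

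The interaction of surgery and vector, whether nerve injury acted differently with Mef2c than with Gfp, had 0 of 34 members called in edgeR and 0% of all genes, with 1 member under an unadjusted p of 0.05 beside 14.9% of all genes. DESeq2, limma-voom and limma-trend called 0 members as well, though limma-voom called 17.2% of all genes. All 6 protein genes of the copied stretch were below 0, between -0.13 (mt-Nd4l; SE 0.11, adjusted p = 0.577) and -0.04 (mt-Co2; SE 0.11, adjusted p = 0.89). The 5 outside ran from -0.03 (mt-Cytb) to 0.03 (mt-Nd5).

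The nuclear genes that serve the mitochondrial genome were taken from 5 lists, beside 5 lists of nuclear subunits of the respiratory chain and ATP synthase. Between Sham Mef2c and Sham Gfp libraries, 2 of 19 genes of mitochondrial DNA maintenance were called, both lower in Sham Mef2c, near the 7.93% of all genes called lower. Cmpk2, a mitochondrial nucleotide kinase that is also induced by interferon, had 27.6, 28.7 and 32.7 CPM in Sham Mef2c libraries, against 39.0, 42.5 and 52.3 CPM in Sham Gfp libraries. These groups did not overlap, and the log2 fold change was -0.60 (SE 0.08, edgeR adjusted p = 0.000161). Polg2, the accessory subunit of the mitochondrial DNA polymerase, had 3.53, 3.82 and 4.41 CPM in Sham Mef2c libraries, against 4.71, 4.90 and 5.64 CPM in Sham Gfp libraries, again without overlap (-0.37, SE 0.07, adjusted p = 0.00136). Its span overlaps Milr1, an immune receptor gene with fewer counts, and without strand their reads cannot be told apart. With the interferon covariate Cmpk2 was at -0.06 and Polg2 at -0.24 (edgeR adjusted p = 1 for each).

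In this comparison 1.49% of all genes were called higher. Of 36 nuclear complex I subunits 1 was called, Ndufv2, higher in Sham Mef2c by 0.17 (SE 0.05, edgeR adjusted p = 0.0477). Of 78 mitochondrial ribosomal proteins 1 was called, Mrpl49, higher by 0.14 (SE 0.04, edgeR adjusted p = 0.0398), and Mrpl49 overlaps Syvn1, which had more counts. Each lost the call in 12 of 17 other settings, among them the fit without Sham Gfp libraries 5 and 6 (edgeR adjusted p = 0.422 and 0.3). No gene was called among 11 of mitochondrial transcription, 24 of mitochondrial RNA processing and decay, 10 regulators of mitochondrial gene content, and the nuclear subunits of complex II (4), complex III (9), complex IV (10) and ATP synthase (15). Polrmt, the mitochondrial RNA polymerase, had 31.1 ± 1.71 CPM in Sham Mef2c and 31.5 ± 1.01 CPM in Sham Gfp libraries, and Tfam, which packs and activates mitochondrial DNA, had 33.9 ± 1.64 CPM in Sham Mef2c and 32.2 ± 3.37 CPM in Sham Gfp libraries (SD, n = 6 each; both genes were added after their values were seen). Tfb2m, added in the same way, had a log2 fold change of -0.14 (SE 0.06, edgeR adjusted p = 0.199). The median log2 fold changes of these lists lay between -0.02 and 0.07, beside 0.21 over the 13 mitochondrially encoded protein genes. In the other comparisons 0 members of these lists were called.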

How the data were processed

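RNA from nucleus accumbens punches was made into libraries with a stranded mRNA kit, per the labels' protocols. The deposited table holds raw counts per Ensembl gene and FPKM by the authors, and per the submitters' processing notes featureCounts and mm10 were used. The aligner, strand setting and treatment of reads with several matches were, in the sources used here, not given. Each deposited FPKM value equals the count over library total and gene length, to a relative tolerance of 1e-06. In 1296 of 1296 nested gene pairs on opposite strands the outer gene held at least the inner gene's counts, so strand was not used. IDs were named from GENCODE M21 (55141 of 55401 matched). Sequences came from its transcripts, and the copies on chromosome 1 were found with blastn 2.17.0. Counts were tested with edgeR 4.0.16 (R 4.3.3; filterByExpr, TMM, quasi-likelihood, 1 coefficient per group over 24 libraries, Benjamini-Hochberg over 23738 genes, threshold 0.05), a script checked on simulated data. Alternatives used DESeq2 1.42.0, limma 3.58.1, other scalings, filters and covariates, and left out libraries. Named are all protein and rRNA members, the 4 tRNA genes with most counts, called tRNA genes, up to 4 called genes per pathway list, Mef2c and copies with at least 1000 counts. Other names were added after their values were seen. The members and lists were chosen with earlier results of these data known. Sample numbers in the labels run group by group, so an effect of handling order and the groups cannot be told apart. No pair of libraries in a group agreed within sampling noise.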

Additional observations from a re-analysis of the deposited data

Results flagged for a closer look

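In groups of 6 libraries, the gap between the end value and its nearest neighbour was set against the group's range (Dixon's criterion at 95%), over 88 groups of values. Chance flags about 1 in 20 such groups, and 2 were flagged here. The rRNA genes made up 13.7% of the mitochondrial counts in SNI Mef2c library 3, while the next highest library of that group had 12.5% and the lowest 12.0%. mt-Ts1, the serine tRNA gene that overlaps mt-Co1, had 9.83 CPM in Sham Mef2c library 6, while the next highest library of that group had 8.64 CPM and the lowest 8.03 CPM.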

How the results depend on the processing

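The count of members called between Sham Mef2c and Sham Gfp libraries, 5 as reported, was 4 to 7 with other scalings, a 1 CPM filter, DESeq2 (7), limma-trend on FPKM, the cortical covariate and without SNI Gfp libraries 3 and 4 or Sham Mef2c libraries 2 and 5. It was 3 with no filter, 9 with limma-voom, 1 with the compared groups alone, 0 with the interferon covariate, 1 with the copies added and 0 without Sham Gfp libraries 5 and 6, and 1 to 7 with 1 library left out. limma-voom also called 4413 of all genes there, 1847 of them higher, against 2235 and 353 in edgeR. For most other settings of that comparison the share of all genes called is not given. Between SNI Mef2c and SNI Gfp libraries DESeq2 called 1 member, beside 438 of all genes (1.88%), and leaving out 1 library gave 0 to 1. Between SNI Gfp and Sham Gfp libraries limma-voom called 5, beside 2777 of all genes (11.7%). With the replicate block the counts were 5, 0, 0, 0 and 0, so it changed none of the 5. Same-numbered libraries did not deviate together (median r = -0.0203 over 36 pairs, 9 of them over 0.1, and 1 library best with its own number), so no pairing by number was seen. For the interaction, a fit of the compared groups alone is the fit of all 24 libraries.

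Log2 fold changes turned direction in the following cases, none past the threshold in those fits. For Sham Mef2c over Sham Gfp libraries, the values with the interferon covariate were -0.20 for mt-Rnr1, -0.16 for mt-Rnr2, -0.083 for mt-Nd1, -0.072 for mt-Nd2, -0.074 for mt-Co1, -0.11 for mt-Nd3, -0.011 for mt-Nd4, -0.087 for mt-Nd5, -0.018 for mt-Nd6, -0.046 for mt-Cytb and -0.097 for mt-Te. The same fit gave -0.057 for mt-Tl1, -0.13 for mt-Tp, -0.16 for mt-Tm, -0.034 for mt-Ts1, -0.085 for Ndufv2, -0.16 for Gm29216, -0.13 for Gm28661, -0.22 for Gm10925, -0.25 for Gm28437, -0.13 for Gm28438, -0.076 for Gm10222 and -0.13 for Gm4076. Without Sham Gfp libraries 5 and 6 they were -0.037 for mt-Tl1, -0.059 for mt-Tp, -0.0033 for Gm28661, -0.088 for Gm28437, -0.017 for Gm10222 and -0.0995 for Gm4076. With library size alone there was -0.0035 for Gm4076. For SNI Mef2c over SNI Gfp libraries, the values with the interferon covariate were -0.027 for mt-Rnr1 and -0.0042 for mt-Rnr2. For SNI Gfp over Sham Gfp libraries, the values with the interferon covariate were -0.16 for mt-Rnr1, -0.15 for mt-Rnr2, -0.021 for mt-Nd1, -0.032 for mt-Nd2, -0.037 for mt-Co1, -0.0041 for mt-Nd4, -0.053 for mt-Nd5, -0.021 for mt-Nd6, -0.011 for mt-Cytb, -0.096 for mt-Te and -0.051 for mt-Tp. The same fit gave -0.047 for mt-Tm and -0.091 for mt-Ts1. Without Sham Gfp libraries 5 and 6 they were -0.060 for mt-Rnr1, -0.066 for mt-Rnr2, -0.069 for mt-Te, -0.093 for mt-Tp and -0.065 for mt-Ts1. With library size alone there was -0.0039 for mt-Rnr2. With limma-trend on FPKM plus 1 there was -4e-04 for mt-Rnr2. With limma-trend on FPKM plus 0.1 there was -3e-04 for mt-Rnr2. For SNI Mef2c over Sham Mef2c libraries, the values with library size alone were -0.029 for mt-Rnr1 and -0.032 for mt-Rnr2. With the 1 CPM filter they were -0.0049 for mt-Rnr1 and -0.0082 for mt-Rnr2. With limma-voom they were -0.024 for mt-Rnr1 and -0.016 for mt-Rnr2. With limma-trend on FPKM plus 1 they were -0.030 for mt-Rnr1 and -0.032 for mt-Rnr2. With limma-trend on FPKM plus 0.1 they were -0.030 for mt-Rnr1 and -0.032 for mt-Rnr2. With the cortical covariate there was -0.018 for mt-Rnr1. Without Sham Mef2c libraries 2 and 5 they were -0.0098 for mt-Rnr1 and -0.0028 for mt-Rnr2. Without Sham Gfp libraries 5 and 6 they were -0.0033 for mt-Rnr1 and -0.0065 for mt-Rnr2. The cause was not tested. With 1 library left out, the ranges that crossed 0 were -1e-04 to 0.12 (mt-Tl1, Sham Mef2c over Sham Gfp), -0.028 to 0.19 (Gm28437) and -0.035 to 0.14 (Gm4076, both Sham Mef2c over Sham Gfp), -0.025 to 0.088 (mt-Rnr1, SNI Gfp over Sham Gfp) and -0.027 to 0.065 (mt-Rnr2, SNI Gfp over Sham Gfp), and further -0.018 to 0.074 (mt-Ts1, SNI Gfp over Sham Gfp), -0.045 to 0.046 (mt-Rnr1, SNI Mef2c over Sham Mef2c) and -0.024 to 0.032 (mt-Rnr2, SNI Mef2c over Sham Mef2c). Depth limits the rarest rows most. The 3 rarest tRNA genes were left out of the tests, and mt-Td was tested with only 10 to 20 counts per library.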

Other observations

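mt-Nd6 is the only protein gene annotated on the minus strand of the mitochondrial genome. It made up 3.73% ± 0.104 of the mitochondrial counts in SNI Mef2c libraries, 3.75% ± 0.0802 in Sham Mef2c libraries, 3.65% ± 0.0848 in SNI Gfp libraries and 3.58% ± 0.138 in Sham Gfp libraries (SD, n = 6 each). The ranges overlapped, with 3.61 to 3.85% in SNI Mef2c, 3.67 to 3.88% in Sham Mef2c, 3.56 to 3.79% in SNI Gfp and 3.40 to 3.72% in Sham Gfp libraries. The value includes reads from any opposite-strand RNA over the same bases, because counting did not use strand.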
